A study of Caenorhabditis elegans with 3 samples.

Results

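Translation initiation and elongation factor genes were examined for EGL-27 occupancy in whole first-larval-stage (L1) Caenorhabditis elegans. The members were all protein-coding genes of the WBcel235 Ensembl annotation whose names start with eef-, eif-, iff-, ife- or ifg-, which gave 39 of 19985 protein-coding genes. They comprise 6 elongation factor genes (eef-) and 33 initiation factor genes, in the naming of the annotation. All data come from strain OP177, with the genotype unc-119(ed3) III; wgIs177, in mixed-sex L1 larvae of unknown age that were given no treatment in the labels. The labels describe the target as eGFP-egl-27, and the note on replicate 3 instead places a GFP-FLAG tag at the C terminus. There were 3 biological replicates in 1 group. Replicates 1 and 2 are labelled with a stock centre as source and with a size range, and replicate 3 with the submitting laboratory as source and with sonication by microtip. No untagged or input sample was analysed here, so the members are compared only within the same lists. Shares over all protein-coding genes include the members.

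Initiation factors bring the small ribosomal subunit, the initiator tRNA and the capped mRNA together: eIF4E binds the cap and the scaffold eIF4G, the eIF3 complex binds the small subunit, and eIF2 delivers the initiator tRNA and is recharged with GTP by eIF2B. Elongation factors then drive the cycle, in which eEF1A delivers aminoacyl-tRNA, the eEF1B complex recharges eEF1A with GTP, and eEF2 moves the ribosome along the mRNA. eIF5A, encoded by iff-1 and iff-2, acts at stalled ribosomes and carries the modified amino acid hypusine. EGL-27 carries a zinc finger of the GATA type and resembles the MTA subunits of NuRD, a complex that remodels nucleosomes and deacetylates histones.

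The strongest member summits lay immediately upstream of genes, and the sequences around 5 of them are printed to show what these sites hold. Those of eef-2 and eif-3.C, also in the authors' thresholded list, are not printed; they held none of the motifs described here. Each is the strand that carries the gene, 5′ to 3′, from genome build WBcel235 (ce11), and spans 50 bp on either side of the summit of the pooled replicates. The interval for eef-1A.2 is chrX:7823242-7823342 (+) and that for iff-2 is chrII:8561369-8561469 (−). The interval for eef-1G is chrV:10965612-10965712 (+), that for eif-3.B is chrII:14795119-14795219 (+) and that for eef-1A.1 is chrIII:6972080-6972180 (−). The upstream sequence of iff-1, whose summit was weak, follows for comparison with iff-2; it is chrIII:9747194-9747290 (−) and ends after 97 bases at the 5′ end of the gene. None of the 6 intervals overlaps an annotated untranslated region. Capitals mark matches on either strand to 6 motifs that were searched. These were the GA repeat GAGAGA, the 9-letter word CTGCGTCTC, the E-box CACGTG, 2 words of the GATA type, namely TGATAA together with its variant AGATAA, and finally the TATA-like word TATAAA.
eef-1A.2: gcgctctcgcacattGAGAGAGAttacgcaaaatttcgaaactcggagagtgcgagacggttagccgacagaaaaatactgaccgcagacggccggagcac
iff-2: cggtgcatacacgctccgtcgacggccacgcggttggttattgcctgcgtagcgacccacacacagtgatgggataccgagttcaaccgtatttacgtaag
eef-1G: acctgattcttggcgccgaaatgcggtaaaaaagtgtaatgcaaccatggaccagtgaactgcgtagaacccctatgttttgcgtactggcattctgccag
eif-3.B: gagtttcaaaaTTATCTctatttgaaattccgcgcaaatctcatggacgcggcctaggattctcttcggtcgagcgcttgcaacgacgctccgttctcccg
eef-1A.1: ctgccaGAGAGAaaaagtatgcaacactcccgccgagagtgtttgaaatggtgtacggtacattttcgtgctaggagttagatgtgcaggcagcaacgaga
iff-1: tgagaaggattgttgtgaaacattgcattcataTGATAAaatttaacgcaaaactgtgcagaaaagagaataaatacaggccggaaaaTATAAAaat

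The GA repeat GAGAGA was the one of the 6 motifs with most matches around the 7 member summits in the authors' thresholded peak list, described next. It occurred at 2 of 7 such summits (28.6%), and in all nuclear summits of that list at 41.3%, against 10.1% of pooled summits outside it and 8.86% of equally long stretches before the 5′ ends of all nuclear protein-coding genes. Both matches belonged to the eEF1A genes. In eef-1A.2 overlapping copies begin at bases 16 and 18 of the printed sequence, and in eef-1A.1 a copy begins at base 7, counted from the 5′ end. None of them lay in the central 51 bp, where 0 of 7 member summits and 25.4% of all nuclear summits of the list held the motif. The GATA-type word AGATAA occurred once, on the opposite strand, from base 12 of the eif-3.B sequence (1 of 7). It was in 4.26% of the list, 5.89% of pooled summits outside it and 8.77% of the stretches before 5′ ends. TGATAA was in 0 of 7 (against 5.11% of the list). CTGCGTCTC was in 0 of 7 windows (against 15.2%), CACGTG in 0 of 7 (against 6.53%) and TATAAA in 0 of 7 (against 3.98%). The shorter word CTGCGT, the start of CTGCGTCTC, chosen after the sequences were seen, stands in iff-2 and in eef-1G (2 of 7, against 24% of the list, 3.87% of pooled summits outside it and 2.81% of the sequences before 5′ ends). Both member windows lacked the longer word, as did 62 of the 169 windows of the list with CTGCGT. The median GC content of the 7 windows was 50.5%, compared with 36.6% around the strongest pooled summits of the other 29 members that had one. It was 48.5% over all 704 nuclear summits of the thresholded list and 37.6% over all 22513 nuclear pooled summits outside it, which include weaker summits of the same genes and summits outside gene windows. A match is a description of these letters only, and with 7 windows no share is precise.

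EGL-27 summits were found more often at translation factor genes than at protein-coding genes in general, in every list that was examined. A gene's window ran from 2000 bp upstream of its annotated 5′ end to its end, with a median length of 4152 bp for the members and 4026 bp for all genes. The authors' list thresholded by the irreproducible discovery rate (IDR), a measure of agreement between replicates, held 705 peaks, which were exactly the 705 of highest signal in their pooled list of 23218. Of the 39 members, 7 had a summit of the IDR list in the window (17.9%), compared with 3.56% of all protein-coding genes. The genes were eef-1A.2, iff-2, eef-2, eef-1G, eif-3.C, eif-3.B and eef-1A.1. In the pooled list, which keeps weak peaks, 36 members had a summit (92.3%), compared with 60.5%. The material is whole larvae, so strong occupancy in few cells and weaker occupancy in many cannot be told apart.

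The replicates were compared through the 705 peaks of highest signal in each, so that list length did not enter. In replicate 1, 5 members had a summit in this top list (12.8%), compared with 3.28% of all genes. In replicate 2 there were 8 (20.5%), compared with 3.62%, and in replicate 3 there were 5 (12.8%), compared with 3.17%. The mean share was 15.4% ± 4.44 for the members and 3.36% ± 0.234 for all genes (SD, n = 3 replicates), and the lowest member share lay above the highest share of all genes. This spread is between replicates of the same genes and does not measure variation between genes. The top lists of all 3 replicates held eef-1A.2 and iff-2. Those of 2 replicates held eef-1A.1, eef-1G, eef-2, eif-3.B and eif-3.C, while eif-2alpha was only in that of replicate 2 and ife-3 only in that of replicate 3.

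The whole replicate lists, of 15286, 30000 and 30000 peaks, were less selective. They held a summit for 28, 35 and 32 members (71.8%, 89.7% and 82.1%), compared with 48%, 67.9% and 71.6% of all genes. All 3 held one for 23 members (59%), compared with 33%. When the replicate summits also had to lie within 200 bp of the same pooled summit, 10 members qualified (25.6%), compared with 8.88% of all genes. These were the elongation factor genes eef-1A.1, eef-1A.2, eef-1B.1 and eef-2, the eIF3 genes eif-3.B, eif-3.C, eif-3.E and eif-3.G, and eif-2alpha and iff-2. No test was run on any of these counts, because the series has 1 group and the gene list was chosen with earlier results of these data known.

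**Figure D1:**
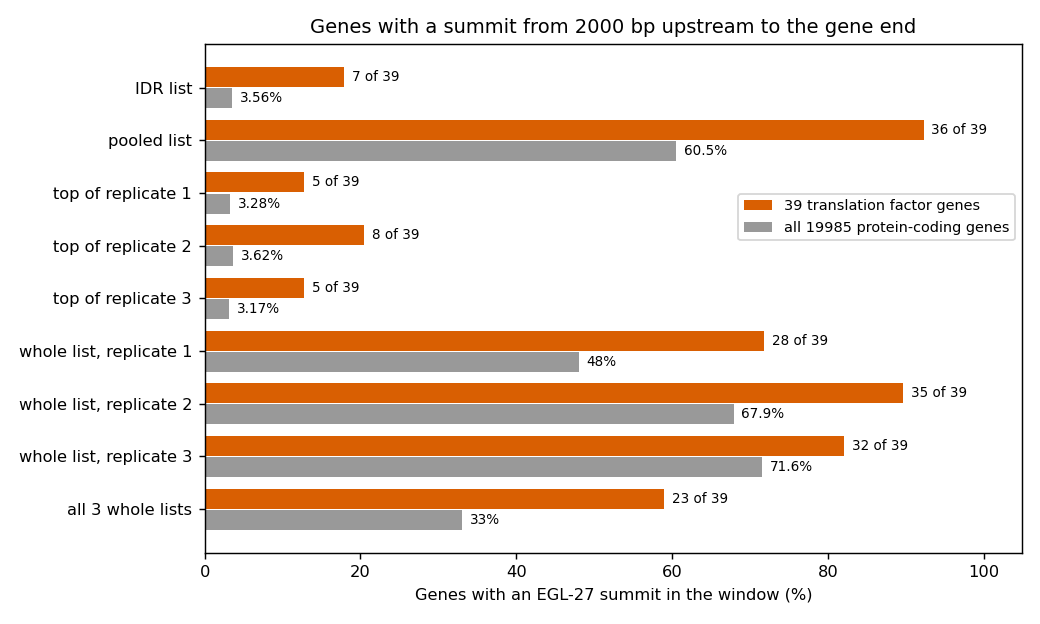
Percentage of genes with an EGL-27 summit from 2000 bp upstream to the gene end, for the 39 translation factor genes and for all 19985 protein-coding genes, in 9 lists or combinations of lists; labels give the member count or the percentage, and there are no error bars because each bar is a single count. The member bar is the longer in every row, from 5 of 39 against 3.17% in the top list of replicate 3 to 36 of 39 against 60.5% in the pooled list.

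The count of 7 was lower when the replicate top lists had to hold the peak as well. With replicate 1 left out, IDR summits that also lay inside a top-list peak of both replicates 2 and 3 remained at 4 members, eef-1A.2, eef-1G, eif-3.B and iff-2 (10.3%, compared with 1.5% of all genes). With replicate 2 left out and the same requirement on the other replicates, they remained at eef-1A.2 and iff-2 alone (5.13%, compared with 1.45%). With replicate 3 left out, they remained at 5, eef-1A.1, eef-1A.2, eef-2, eif-3.C and iff-2 (12.8%, compared with 1.21%). These counts join 2 changes, the missing replicate and the top-list requirement, and their separate parts were not tested. In the upper 50% of the IDR list by signal, only eef-1A.2 and iff-2 were left (5.13%, compared with 1.75%).

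Of the 6 elongation factor genes, 4 had an IDR summit, and of the 33 initiation factor genes 3 had one, compared with 3.56% of all genes. These groups follow gene names only, and the 3 include iff-2, for an eIF5A protein, which acts at stalled ribosomes. The top lists of replicates 1, 2 and 3 held 3, 4 and 2 elongation factor genes and 2, 4 and 3 initiation factor genes. Of all genes, 3.28%, 3.62% and 3.17% had a summit in these top lists. The split between the 2 groups thus varied between replicates and was not tested. All 6 elongation factor genes had a pooled summit, with signals from 10.8 to 98.2 and a median rank of 565 in the pooled list, where rank 1 is the highest signal. Of the initiation factor genes, 30 had a pooled summit, with signals from 8.36 to 84.1 and a median rank of 6278. A pooled summit was present at 60.5% of all genes. Signal is the value the authors' peak caller gave each peak. It is used here only within a list, and the pooled list runs from 7.84 to 252.5.

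The eEF1A genes encode the protein that carries aminoacyl-tRNA to the ribosome, and both copies had an IDR summit. eef-1A.2 (WBGene00001169, chromosome X, 7823654 to 7825769, plus strand) had the strongest peak of all members. Its pooled peak, at 7823097 to 7823486, had a signal of 98.2 and rank 31, with the summit 362 bp upstream of the 5′ end. Near it, the peak had a signal of 19.7 and rank 43 in replicate 1, 29.2 and rank 80 in replicate 2, and 51.9 and rank 37 in replicate 3. The replicate summits lay at most 44 bp from the pooled one, so the 3 replicates placed this site in the same stretch and near the head of every list. A non-coding RNA gene, R03G5.8, lies within 200 bp of the summit, and the summit lies in the window of no other protein-coding gene. A further, weak pooled summit with a signal of 10.6 lay in a coding exon of the gene.

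The other copy, eef-1A.1 (WBGene00001168, chromosome III, 6970026 to 6971712, minus strand), stood near the end of the IDR list. Its pooled peak at 6971935 to 6972324 had a signal of 32.5 and rank 666, with the summit 418 bp upstream. Peaks near this summit ranked 566 in replicate 1 (signal 8.19), 641 in replicate 2 (14.6) and 4428 in replicate 3 (7.99), so replicates 1 and 2 had it in their top lists and replicate 3 did not. In replicate 2 a stronger summit, with rank 419 and a signal of 16.6, lay at −180 bp. The 5′ end of the divergent gene rfc-4, for a subunit of replication factor C, was nearer to the pooled summit (123 bp) than that of eef-1A.1, and the microRNA gene mir-5549 lay within 200 bp. Its assignment to eef-1A.1 therefore rests on the window rule.

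eef-2 (WBGene00001167, chromosome I, 9163531 to 9166952, plus strand) encodes the translocation factor eEF2. Its pooled peak at 9163284 to 9163673 had a signal of 41.7 and rank 381, with the summit 52 bp upstream. Near that summit the peak ranked 308 in replicate 1 (signal 10.3), 381 in replicate 2 (17.1) and 1242 in replicate 3 (13.1). Replicates 1 and 2 thus had it in their top lists and replicate 3 outside. The divergent neighbour clsp-1 begins 264 bp away, and the window of clsp-1 holds the summit too, although the 5′ end of eef-2 is the nearer one.

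The eEF1B complex, which exchanges GDP for GTP on eEF1A, has 3 members here. eef-1G (WBGene00008920, chromosome V, 10965719 to 10967922, plus strand), its gamma subunit, had a pooled peak at 10965467 to 10965856 with a signal of 38.8 and rank 464, 57 bp upstream. Replicates 2 and 3 placed it at ranks 383 and 476 (signals 17.0 and 20.1). Replicate 1, whose list was the shortest, had no summit anywhere in the window of eef-1G, so only replicates 2 and 3 had a called peak at this site. The exchange-factor gene eef-1B.1 had a pooled summit 7 bp upstream of its 5′ end with a signal of 24.5 and rank 1242, outside the IDR list. Near it, replicates 2 and 3 had peaks at ranks 4569 and 1652, while the strongest summit of replicate 1 in the window, with rank 1260, lay 750 bp inside the gene. The second exchange-factor gene, eef-1B.2, had its strongest pooled summit 11 bp upstream, with a signal of 10.8 and rank 11329. Near it, replicates 2 and 3 ranked 23047 and 8933, and the strongest summit of replicate 1 in the window, of rank 2719, lay at −1046 bp. The 3 subunit genes thus spread from rank 464 to rank 11329 although each summit lay within 57 bp of the 5′ end.

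**Figure D2:**
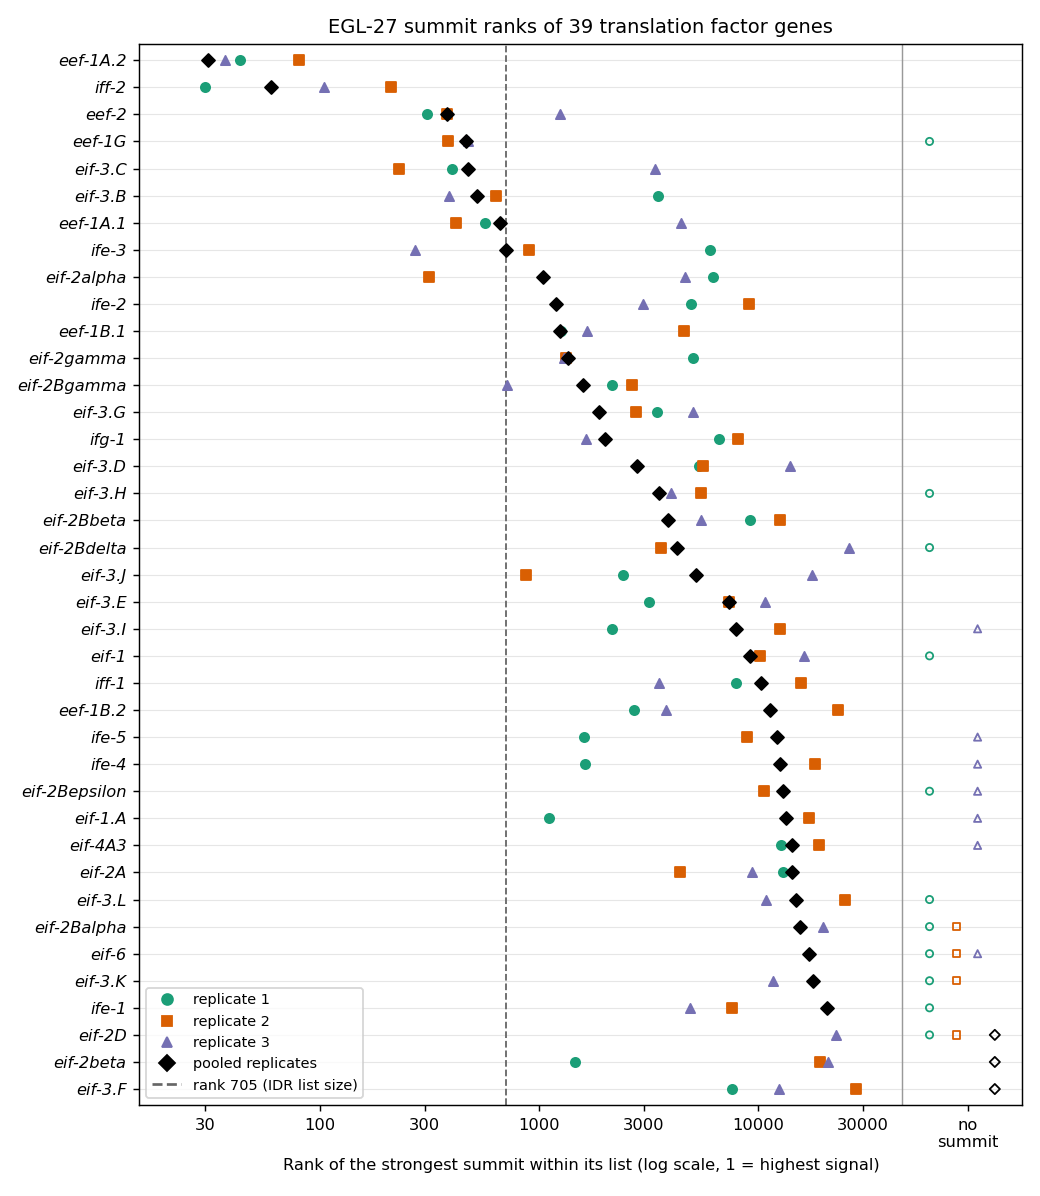
Rank of the strongest EGL-27 summit in the window of each of the 39 translation factor genes, within each replicate list and the pooled list (log scale, 1 is the highest signal); open symbols at the right mark lists with no summit, and the dashed line is rank 705. Only eef-1A.2 and iff-2 have all 4 symbols left of the line, and the replicates of most other genes are spread widely.

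Among the genes grouped by name as initiation factors, iff-2 (WBGene00002065, chromosome II, 8559375 to 8561367, minus strand) stood first. It encodes an eIF5A protein, and its pooled peak at 8561224 to 8561613 had a signal of 84.1 and rank 60, with the summit 52 bp upstream. Peaks near it ranked 30 in replicate 1 (signal 23.6), 212 in replicate 2 (21.1) and 104 in replicate 3 (37.7), with summits at most 16 bp from the pooled one. All 3 replicates therefore had this site in their top lists. A further pooled summit, with a signal of 19.7, lay in the 3′ untranslated region of iff-2.

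The germline eIF5A gene iff-1 ranked far below iff-2 in the pooled list and in each replicate list. Its pooled summit, 47 bp upstream of the 5′ end, had a signal of 11.1 and rank 10320. Near that summit replicate 1 had a peak at rank 7934 and replicate 3 at rank 3512, while replicate 2 had none there and its strongest summit in the window, at rank 15696, lay 810 bp inside the gene. The iff-2 and iff-1 summits thus lay at nearly the same distance from their 5′ ends, with far apart ranks. The GC content of the printed windows was 56.4% for iff-2 and 29.9% for iff-1.

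The eIF3 complex, which holds the small ribosomal subunit during initiation, has 11 members, of which 2 had an IDR summit and 10 a pooled one. Of all genes, 3.56% had an IDR summit and 60.5% a pooled one. eif-3.C (WBGene00001226, chromosome I, 9976426 to 9979662, minus strand), a core subunit, had its pooled peak at 9979707 to 9980096, with the summit 240 bp upstream, a signal of 38.4 and rank 475. Near this summit it ranked 400 in replicate 1 (signal 9.28), 229 in replicate 2 (20.5) and 6163 in replicate 3 (7.06), in which a stronger summit of rank 3385 lay 790 bp inside the gene. eif-3.B (WBGene00001225, chromosome II, 14795404 to 14798235, plus strand), which encodes a scaffold subunit, had its pooled peak at 14794974 to 14795363, with the summit at nearly the same upstream distance as in eif-3.C, a signal of 36.6 and rank 519. It ranked 3496 in replicate 1 (signal 4.32), 638 in replicate 2 (14.6) and 388 in replicate 3 (22.0). Replicate 2 was thus the only one that had both eIF3 genes in its top list: replicate 3 had eif-3.C far down, and replicate 1 had eif-3.B far down.

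The other eIF3 genes had pooled signals from 8.93 (eif-3.K) to 20.5 (eif-3.G). eif-3.G, an RNA-binding subunit, had its strongest summit 1885 bp upstream, inside the neighbouring gene lips-10. Those of eif-3.D (17.6), eif-3.E (12.5) and eif-3.I (12.2) lay 167, 154 and 39 bp upstream, while those of eif-3.H (16.3), eif-3.L (9.67) and eif-3.K (8.93) lay within the gene. For eif-3.J (14.2, rank 5216), replicate 2 had a peak at rank 873 near the pooled summit and the other replicates had none near it. No pooled summit was found in the window of eif-3.F, whose strongest replicate summits ranked 7543, 27736 and 12429.

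The 5 cap-binding eIF4E genes had pooled signals from 8.36 to 31.5, and 0 of 5 had an IDR summit, a count too small to read against the 3.56% of all genes. ife-3 was the member just below the cutoff: its signal of 31.5 gave rank 708, against the weakest IDR peak at rank 705. It ranked 272 in replicate 3 and 6036 in replicate 1 near that summit, while the strongest summit of replicate 2 in the window, at rank 898, lay at −1395 bp, more than 200 bp away and beside a further pooled summit 1354 bp upstream with a signal of 13.4. The strongest summit lay 1141 bp upstream, and 230 bp from the 5′ end of B0348.10, which was nearer. ife-2, a mainly somatic form, had a summit 233 bp upstream with a signal of 24.9 and rank 1195, and replicates 2 and 3 placed it at ranks 9046 and 2976, while the strongest summit of replicate 1, at rank 4933, lay elsewhere in the window. The remaining copies ife-5 (10.5, rank 12200), ife-4 (10.3, rank 12557) and ife-1 (8.36, rank 20563) had weak summits, of which that of ife-1, a germline form, lay inside the gene nud-1. The strongest summits in the window of ife-5 ranked 1607 in replicate 1 and 8893 in replicate 2, and those of ife-4 ranked 1624 and 18058, with none in replicate 3 for either gene. Those of ife-1 ranked 7592 in replicate 2 and 4858 in replicate 3, with none in replicate 1. All of these lay below the top lists. The scaffold gene ifg-1, the only eIF4G member, had a signal of 19.9 and rank 2002, with its summit 664 bp upstream and 58 bp from the 5′ end of M110.3.

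The 3 eIF2 genes and the 5 genes of its exchange factor eIF2B had pooled signals of at most 26.5. None had an IDR summit, which at 3.56% of all genes is near the background for so few genes. The gene of the alpha subunit, eif-2alpha, whose product is the phosphorylation target of stress kinases, had a summit with a signal of 26.5 and rank 1042, but 1745 bp upstream and 328 bp from Y37E3.8. Replicate 2 ranked it 315 and replicate 3 ranked it 4608, and the strongest summit of replicate 1 in the window, at rank 6188, lay 2480 bp inside the gene. The gene of the gamma subunit, eif-2gamma, had a summit 179 bp upstream with a signal of 23.7 and rank 1347, which replicates 1 and 2 ranked 8043 and 1319, while replicate 3 had its strongest summit, of rank 1296, at −381 bp. That of the beta subunit, eif-2beta, had no pooled summit, although replicate 1 had a peak of rank 1462 in its window. The 5 eIF2B genes had signals from 9.48 (eif-2Balpha) to 22.1 (eif-2Bgamma, rank 1580, 303 bp upstream and inside C15F1.5), and eif-2Bgamma had peaks near its summit in replicate 3 (rank 1064) and replicate 1 (rank 6414). The strongest summits of replicates 1, 2 and 3 in that window ranked 2141, 2648 and 715, at −727, −584 and −879 bp. A second pooled summit of nearly equal signal (21.7, rank 1639) lay 877 bp upstream. The non-coding genes C15F1.14, mir-1831 and sup-39 lay within 200 bp of it.

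The other genes grouped by name as initiation factors had low pooled signals. eif-1 and eif-1.A, for the factors that guide start-codon selection, had 11.6 and 10.1, while eif-4A3, eif-2A and eif-6 had 9.85, 9.84 and 9.09. The last of these, a factor that keeps ribosomal subunits apart, had no summit in its window in any replicate list. With the window extended to 3000 bp upstream, eif-6 gained an IDR summit, and the share of all genes with one was 4.14%, compared with 3.56%. The pooled summit of eif-6, 341 bp upstream, was nearer to pbs-2 (325 bp) and also lay in the windows of gale-1, pbs-2 and tba-2. eif-2D had no pooled summit and 1 replicate summit, at rank 22618 in replicate 3. With eif-3.F and eif-2beta it completes the 3 members that had none in the pooled list.

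The member summits were concentrated close to the 5′ end on its upstream side. The strongest pooled summit was upstream in 29 of the 36 members that had one (80.6%), compared with 55.9% of all genes with a pooled summit. It was within 500 bp upstream in 21 (58.3%), compared with 22.0%. All 7 member IDR summits were within 500 bp upstream, at 52 to 418 bp, compared with 276 of the 712 genes with an IDR summit (38.8%). The remaining 7 of the 36 strongest summits lay within the gene, 2 in coding exons, 4 in introns and 1 in an untranslated region. In the replicate lists the share within 500 bp upstream was 39.3%, 45.7% and 34.4% for the members, against 19.7%, 18.5% and 17.6% for all genes. The means were 39.8% ± 5.69 and 18.6% ± 1.05 (SD, n = 3), and the ranges over replicates do not overlap. Those ranges come from the same genes in 3 replicates and do not measure variation between genes.

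**Figure D3:**
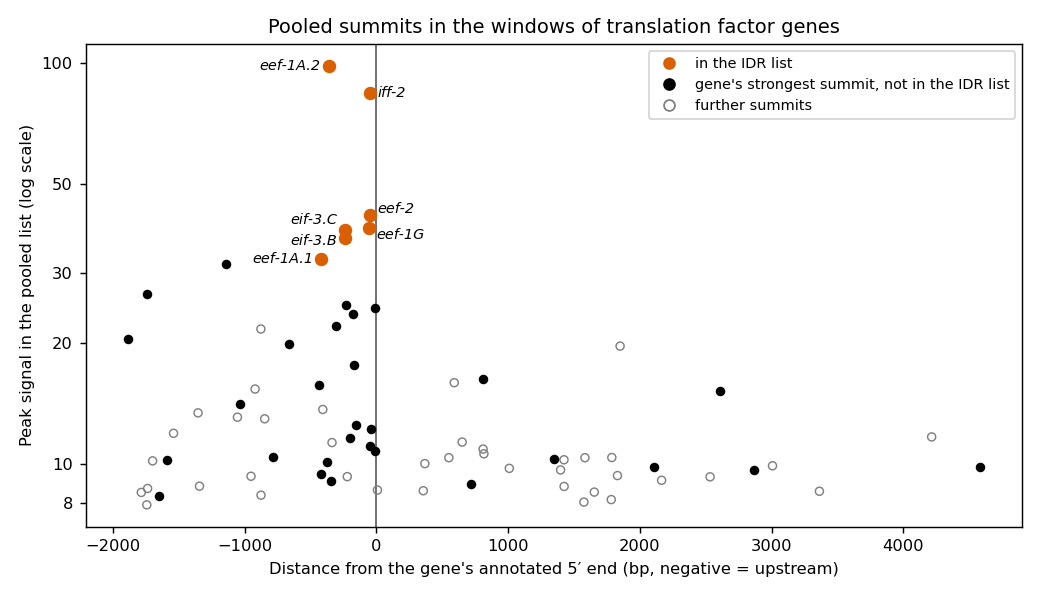
Signal of each pooled EGL-27 summit (log scale) against its distance from the annotated 5′ end of the translation factor gene in whose window it lies, in bp with upstream negative; orange points are in the IDR list, black points are the strongest summit of a gene outside that list and open points are further summits of the same genes. The 7 orange points lie between 52 and 418 bp upstream, while weaker summits are spread over the whole window.

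The members also ranked higher among genes that had a summit. The median rank of the strongest pooled summit, as a percentage of list length with 0 at the highest signal, was 17.4% for the 36 members, compared with 35.6% for all genes with a summit. It was 19.3%, 18.6% and 15.1% in replicates 1 to 3, compared with 39.6%, 31.3% and 33.3%, so the means were 17.6% ± 2.26 and 34.7% ± 4.36 (SD, n = 3). In the top 10% of the pooled list were the strongest summits of 15 of 36 members (41.7%), compared with 17.5%. Per 10 kb of window the members had 4.41 pooled summits, compared with 2.40 for all genes. The top-list peaks numbered 0.290, 0.523 and 0.290 per 10 kb in the 3 replicates for the members, compared with 0.0729, 0.0797 and 0.0690. A member without a summit has no rank, so these medians describe only the genes with one.

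The replicate lists did not all hold the same sites. For the strongest pooled summit of each of the 36 members, 8 had a peak within 200 bp in all 3 replicate lists (22.2%, compared with 13% of all genes with a pooled summit). A further 18 had one in 2 lists (50%, compared with 33.6%), 7 in 1 list (19.4%, compared with 46.1%) and 3 in none (8.33%, compared with 7.34%). Among the 7 members of the IDR list, 6 had such a peak in all 3, and eef-1G lacked it in replicate 1.

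Members often begin beside another gene, which bears on whose summit was counted. The 5′ end of the member itself was the nearest to its strongest pooled summit in 22 of 36 (61.1%), compared with 70.4% of all genes. For the IDR summits it was the nearest in 6 of 7 (85.7%), compared with 69.2%. A neighbour on the opposite strand lay within 1000 bp upstream of 20 of the 39 members (51.3%), compared with 21.3% of all genes. It did so for 4 of the 7 members with an IDR summit, namely eef-1A.1, eef-1G, eef-2 and iff-2. A same-strand neighbour within 500 bp upstream, the arrangement found inside operons, was present at 8 members (20.5%), compared with 20.6%. Of these 8, 1 had an IDR summit (12.5%, compared with 2.41% of all genes so placed), and of the other 31 members 6 had one (19.4%, compared with 3.86%). The part that shared upstream regions play in the counts was not tested.

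Other genes of translation, taken from a list of 45 names of which 41 were found as separate genes, included 5 genes with an IDR summit (12.2%, compared with 3.56% of all genes) and 37 with a pooled summit (90.2%, compared with 60.5%). Their windows were longer, with a median of 5740 bp, compared with 4026 bp for all genes. The part that window length plays in these counts was not tested. The list held aminoacyl-tRNA synthetases, release factors, poly(A)-binding proteins, kinases of eIF2alpha and of elongation, kinases of the TOR pathway, and regulators of the cap-binding complex. It also held inf-1, which encodes the helicase eIF4A and had no IDR summit and a pooled signal of 13.7. Those with an IDR summit were larp-1, a La-related RNA-binding protein (signal 66.9, rank 117, in an intron), and drr-2, a relative of eIF4H (64.7, rank 130, 136 bp upstream). The others were ifet-1, a relative of the eIF4E-binding protein 4E-T (60.5, rank 155, but nearer to rps-1), gcn-1, an activator of the kinase GCN2 (40.3, rank 415, in an intron 20196 bp from the 5′ end), and pab-2, a poly(A)-binding protein (34.7, rank 583, 147 bp upstream). Near the pab-2 summit, replicate 3 had a peak at rank 179 and replicate 2 at rank 8298, while replicate 1 had none. In the top lists of replicates 1, 2 and 3 there were 5, 3 and 5 of the 41 (12.2%, 7.32% and 12.2%). The shares of all genes there were 3.28%, 3.62% and 3.17%. The strongest pooled summit was within 500 bp upstream in 15 of 37 (40.5%), compared with 58.3% of the members and 22.0% of all genes, and the difference between these lists was not tested.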

How the data were processed

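EGL-27 was mapped by chromatin immunoprecipitation sequencing (ChIP-seq) in 3 replicates of whole L1 larvae, 1 group. Per the deposited library notes, the authors called relaxed peak lists on each replicate and on the pooled replicates, and an optimal IDR list, in builds ce10 and ce11, all against a control alignment that was not used here. Which aligner and caller were used, and at which IDR threshold, is not given in the sources used here. For each peak, the deposited signal (the caller's value) was used only to rank peaks within a list. The deposited −log10 p-values and −log10 q-values were not used, and the ce10 lists were not used. Read depth is unknown, so no interval is given for a single peak. The ± values measure the spread between these 3 replicates and not the variation between genes.

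Peaks were ranked by signal, and the summit was the deposited offset, given here 1-based. Genes came from Ensembl release 115 on WBcel235, and sequences from the RefSeq genome of that assembly, on which the coding start of 39 of 39 members read ATG and 0 peaks ran past a chromosome end. A summit counted for every gene whose window held it, so neighbouring genes can share one. Scripts ran in Python 3.11.15 with figures from matplotlib 3.10.9, and the window and rank code was tested on simulated data.

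The members, the list of other translation genes and the motifs were chosen with earlier results of these data known. Every member could be named. Ranks in every list are given for members with an IDR summit, the 6 next by pooled signal, and every gene copy of eef-1A, eef-1B, iff and ife. Of the other translation genes, those with an IDR summit were named; inf-1 was chosen for its role after its values were seen. Alternatives changed the window, the peak overlap, the nearest-gene rule, the list lengths, the matching distance, the motif window and the replicates included.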

Additional observations from a re-analysis of the deposited data

How the results depend on the processing

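Of 41 alternatives, 30 left their result in place and 11 moved it. A count was kept when it lay within a ratio of 1.5 of the main one, and that ratio applied to counts only. Kept counts thus include 27 members with a pooled summit in promoter windows, against 36. They also include the 5 members and the 4 other translation genes given below for the replicate rule. The 7 members with an IDR summit became 2 in the upper 50% of the list, and 2 to 5 when a replicate was left out and the top lists of both others had to hold the peak. The other translation genes with one numbered 3 in the upper 50%, against 5 in the whole list, and 3 to 4 under the same replicate rule. The share of all genes fell too, from 3.56% to 1.75% in the upper 50% and to between 1.21% and 1.5% under the replicate rule. The mean of 6 members per replicate top list was 3.33 with the list shortened to 352 peaks, for which the share of all genes is not given here. Of the 23 members with a summit in all 3 replicate lists, 14 were left in promoter windows (1000 bp upstream to 500 bp downstream of any 5′ end) and 10 within 200 bp of the same pooled summit. The share of all genes fell from 33% to 8.88% within 200 bp, and that in promoter windows is not given here. The median rank percentile of 17.4 was 15.1 with windows from 3000 bp upstream. The GAGAGA share was 0% in 51 bp around the summit, compared with 28.6% in the wider window. The cause of these shifts was not tested. No paired analysis was possible because there is 1 group. Unknown read depth limits what a missing or weak peak in a single replicate shows.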
